A study of Mus musculus with 6 samples.

Results

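The genes described here encode SR proteins and heterogeneous nuclear ribonucleoproteins (hnRNPs). They were taken from the gene table by symbol, as Srsf followed by a number or any name that starts with Hnrnp, leaving out Hnrnpa2b1 and Hnrnpc. This rule found 27 of the 14665 genes, with 10 SR protein genes and 17 hnRNP genes. RNA was measured in C17.2 cells, an immortalized mouse neural stem cell (NSC) line of WT genotype grown with 10% serum, by RNA-seq after removal of ribosomal RNA. The 3 libraries of the H/R group came from cells kept for 12 h at 5% O2, with CO2 and N2, and then for 48 h in standard oxygen, a model of ischemia followed by reperfusion. The 3 libraries of the control group came from C17.2 cells without that treatment. All libraries came from the same cell line, and the labels do not say whether they were separate cultures, so the p-values reflect how far these libraries scatter, which may be technical.

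SR proteins carry an RNA recognition motif and a tail rich in arginine and serine, bind exonic enhancers, and recruit the U1 and U2 particles to splice sites. The tail is phosphorylated by SRPK and CLK kinases, and this sets where the proteins reside and when they act. hnRNPs coat nascent RNA and often act at silencers, so that both families set the choice of exon at many of the same transcripts. Several SR protein genes control their own level through a highly conserved exon with a stop codon or through a retained intron, which sends the transcript to decay or keeps it in the nucleus.

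Exon and intron sequences are shown for Srsf6, Srsf11 and Srsf3, because noncoding transcripts with them were counted in a table of their own. The values of that table are given after those of the genes. Whether any of these sequences controls the level of its gene was not tested. The first is the part of an Srsf6 exon from its start up to the stop codon, in capitals, at chr2:162932815-162932966 of mm10 on the plus strand. The exon is in transcript ENSMUST00000017065, annotated for nonsense-mediated decay, and is absent from every CCDS transcript of the gene. The next is the whole exon of 64 bases of the Srsf11 transcript ENSMUST00000089922, at chr3:158024698-158024761 on the minus strand, which CCDS transcripts also lack. The others run from a coding exon into the intron after it, with the GT of the 5′ splice site in capitals. They are from Srsf11 ENSMUST00000133090 at chr3:158026665-158026754 on the minus strand and Srsf3 ENSMUST00000147265 at chr17:29038595-29038684 on the plus strand. The Srsf11 transcript ends inside this intron of 3774 bases, at chr3:158024737, so it holds only the first part of it.
Srsf6 exon: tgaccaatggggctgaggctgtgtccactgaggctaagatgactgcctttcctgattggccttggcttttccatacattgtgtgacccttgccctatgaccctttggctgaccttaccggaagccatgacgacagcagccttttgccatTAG
Srsf11 exon: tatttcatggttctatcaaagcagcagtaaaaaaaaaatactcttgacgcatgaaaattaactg
Srsf11 intron start: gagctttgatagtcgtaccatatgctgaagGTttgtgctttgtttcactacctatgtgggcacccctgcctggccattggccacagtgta
Srsf3 intron start: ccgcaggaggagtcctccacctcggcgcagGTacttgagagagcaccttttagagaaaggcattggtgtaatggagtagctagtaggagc

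Gene counts per library were 15639751 to 16830389 in the H/R group and 7267809 to 8371882 in the control group, so that depth differed between the groups. Levels are given as CPM scaled by TMM factors, which were 1.07 to 1.08 in H/R libraries and 0.920 to 0.938 in control libraries. In bulk RNA, fewer cells with a transcript and less of it per cell cannot be told apart. Of the NSC markers, Nes averaged 331 CPM in H/R and 196 CPM in control, Vim 1329 and 1221 CPM, and Sox2 31.0 and 29.1 CPM. Of the 7 NSC markers tested, 2 were higher (Nes and Notch1) and 1 was lower, Sox9, with 1.79 ± 0.317 CPM in H/R and 8.28 ± 6.84 CPM in control (SD, n = 3 each), and 5 of 12 listed markers were not analysed here. Collagen mRNA was abundant, with 4135 CPM of Col1a1 in H/R and 4319 CPM in control. The summed level of the 6 fibroblast and mesenchyme markers of 7 listed was 5610 to 6991 CPM in H/R libraries and 5967 to 8604 CPM in control libraries. Of the neuron markers, 4 of 7 listed were in the table and were led by Map2, which was lower in H/R, and their summed level was 34 to 37.0 CPM in H/R libraries and 73.6 to 81.1 CPM in control libraries. Tubb3, Gfap, Mog, Cx3cr1 and Cdh5 were below 1 CPM in every library. Whether cell composition or state had a part in the results below was not tested.

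Of the 27 genes, 25 passed the filter on low counts. In H/R, 2 were higher and 5 were lower by edgeR's quasi-likelihood test at a Benjamini-Hochberg adjusted p under 0.05, and 18 did not pass. This is 28% of the genes tested in these families, against 37.8% of all 11104 genes tested. The genes called were 4 SR protein genes, Srsf5, Srsf2, Srsf11 and Srsf6, all lower, and 3 hnRNP genes, with Hnrnpa3 lower and Hnrnpul2 and Hnrnpm higher. Over all genes, 18.8% were higher and 19% lower. The median log2 fold change was -0.34 for the 8 SR protein genes tested and 0.01 for the 17 hnRNP genes, beside 0.01 for all genes. None of the 25 reached the cutoffs that the study used (a change of at least 2-fold and an unadjusted p under 0.05) by the quasi-likelihood test, by DESeq2 or by the exact test of edgeR (0 each), although 8 had an unadjusted p under 0.05. These cutoffs were met by 11.2% of all genes tested.

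**Figure D1:**
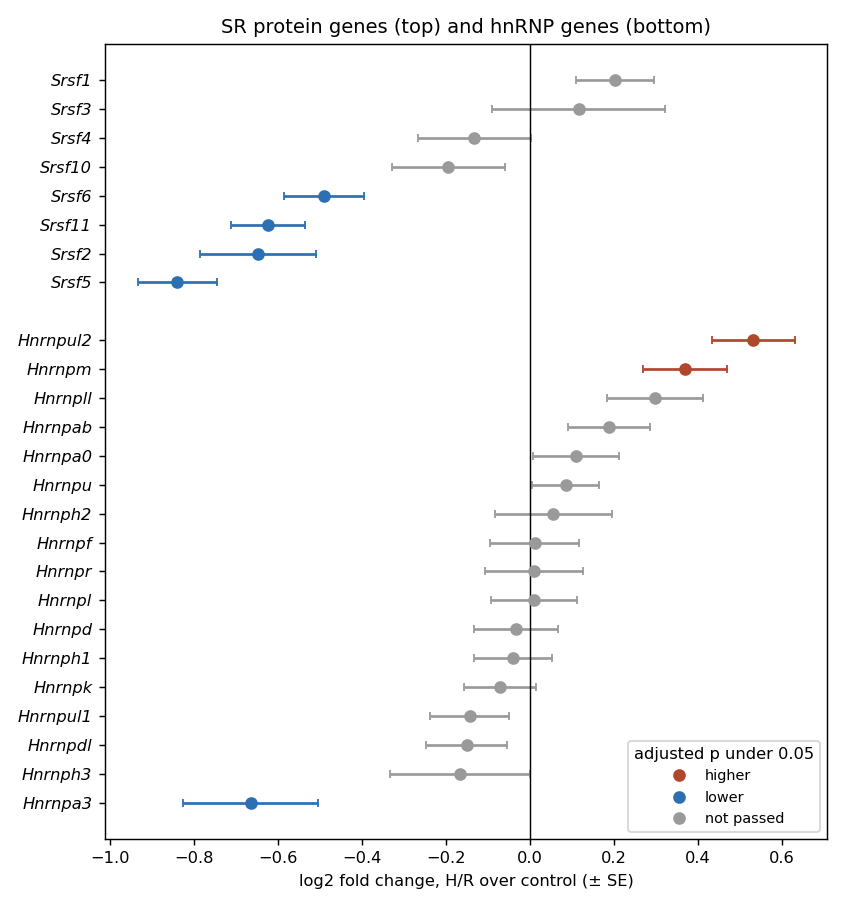
Log2 fold change of H/R over control, with its SE, for the 8 SR protein genes (top) and the 17 hnRNP genes (bottom) that were tested, coloured by whether the adjusted p was under 0.05. Srsf5, Srsf2, Srsf11 and Srsf6 lie between -0.84 and -0.49, and 14 of the 17 hnRNP genes lie between -0.17 and 0.30 without a call.

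Srsf5, which encodes an SR protein first known as SRp40, changed most of the 25. Its level was 201, 201 and 206 CPM in the H/R libraries and 401, 368 and 320 CPM in the control libraries (chr12:80945504-80950507, mm10). All H/R libraries were thus far below the lowest control library, and they lay closer together than the controls did. The level fell to 203 ± 3.25 CPM in H/R, against 363 ± 40.7 CPM in control (SD, n = 3 each), with a log2 fold change of -0.84 ± 0.09 (SE) and an adjusted p of 1.82e-05 by edgeR's quasi-likelihood test.

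Srsf2, known as SC35 and used as a mark of nuclear speckles, had 56.5, 58.6 and 44.1 CPM in H/R and 77.8, 75.1 and 96.8 CPM in control. The groups did not overlap. The level averaged 53.1 ± 7.83 CPM in H/R and 83.3 ± 11.8 CPM in control (SD, n = 3 each), and the log2 fold change was -0.65 ± 0.14 (SE; adjusted p = 0.0024, edgeR quasi-likelihood test). Srsf2 (chr11:116849901-116853094) shares 15.6% of its exon bases with Mettl23 on the other strand and 9.74% with Mfsd11, and whether the counting used strand is not given in the sources used here.

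Srsf11, an SR protein that was found as a nuclear p54, had 112, 122 and 115 CPM in the H/R libraries and 179, 186 and 174 CPM in the control libraries (chr3:158010473-158036639). The spread within either group was small beside the gap between them. Its log2 fold change was -0.62 ± 0.09 (SE), with 117 ± 5.01 CPM in H/R and 180 ± 5.78 CPM in control (SD, n = 3 each) and an adjusted p of 1.19e-04 by edgeR's quasi-likelihood test.

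Srsf6, which encodes SRp55, had 159, 159 and 156 CPM in H/R and 236, 233 and 195 CPM in control (chr2:162931528-162937121). The H/R libraries were again nearly alike and all lower than any control library. The level averaged 158 ± 1.95 CPM in H/R and 222 ± 22.9 CPM in control (SD, n = 3 each), a log2 fold change of -0.49 ± 0.10 (SE; adjusted p = 0.00127, edgeR quasi-likelihood test).

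The other 4 SR protein genes tested gave no call, and their groups overlapped. Srsf1, the founding member of the family, had 342, 386 and 417 CPM in H/R and 351, 337 and 309 CPM in control, with a log2 fold change of 0.20 ± 0.09 (SE; adjusted p = 0.108, edgeR quasi-likelihood test). Srsf10, an SR protein that turns into a repressor when dephosphorylated, had 232, 244 and 288 CPM in H/R and 336, 313 and 224 CPM in control. Its log2 fold change was -0.19 ± 0.14 (SE), and control replicate 3 lay below all H/R libraries while the other controls lay above them. Without that library the log2 fold change was -0.36 and the adjusted p 0.0144. Srsf3, the smallest SR protein, averaged 38.2 ± 3.84 CPM in H/R and 35.1 ± 11.8 CPM in control (SD, n = 3 each), and Srsf4 averaged 40.5 ± 5.21 and 44.4 ± 3.84 CPM. Srsf4 shares 43.0% of its exon bases with Gm12992 on the other strand.

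**Figure D2:**
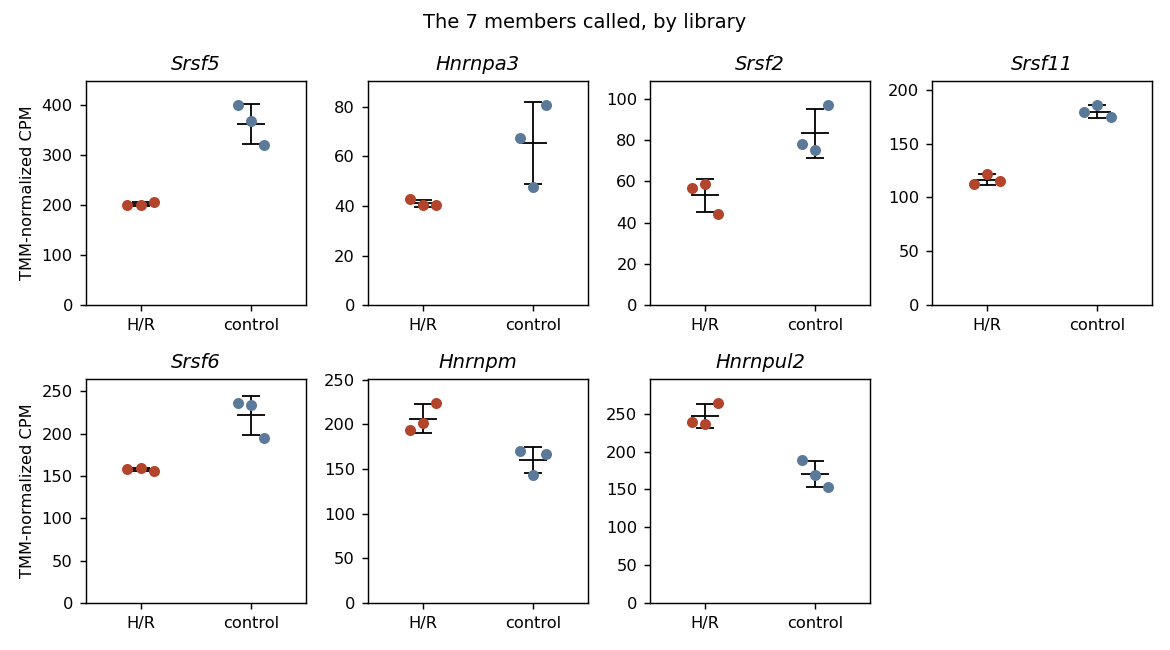
TMM-normalized CPM of the 7 genes called, with H/R left and control right in each panel, a point for each library and the mean with its SD in black. The H/R and control libraries do not overlap in any panel, and the gap is narrowest for Hnrnpa3, where the lowest control library has 47.7 CPM and the highest H/R library 42.8 CPM.

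Among the hnRNPs of the A/B and D groups, which share a pair of RNA recognition motifs and a glycine-rich tail, Hnrnpa3 was lower. It had 42.8, 40.3 and 40.2 CPM in H/R and 67.5, 47.7 and 80.7 CPM in control (chr2:75659261-75669407). The H/R libraries were below all control libraries, which differed widely among themselves. The log2 fold change was -0.67 ± 0.16 (SE), with an adjusted p of 0.00569 by edgeR's quasi-likelihood test. Reads of Hnrnpa3 can also match close copies of this gene family, which makes its count less certain than others.

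The other 4 genes of these groups overlapped between H/R and control. Hnrnpab, the most abundant of the 25 genes tested per length, had 176 CPM per kb of exon in H/R and 154 CPM per kb in control, and its log2 fold change of 0.19 ± 0.10 (SE) did not pass. It shares 29.1% of its exon bases with Phykpl on the other strand. Hnrnpd, known as AUF1 and a factor of AU-rich mRNA decay, averaged 200.1 ± 17 CPM in H/R and 205 ± 19.2 CPM in control (SD, n = 3 each), and its relative Hnrnpdl averaged 131 ± 11.2 and 146 ± 5.65 CPM. Hnrnpa0, which binds AU-rich elements, averaged 116 ± 10.7 CPM in H/R and 108 ± 6.27 CPM in control.

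The 4 hnRNPs of the F/H group bind runs of G and had log2 fold changes of -0.17 to 0.06. None was called higher or lower by edgeR's quasi-likelihood test, by DESeq2 or by the exact test, and 0 had an unadjusted p under 0.05. Hnrnph1 averaged 343 ± 15.5 CPM in H/R and 353 ± 39.0 CPM in control, and Hnrnpf 350.3 ± 55.0 and 348 ± 6.24 CPM (SD, n = 3 each). Hnrnph2 ranged from 133 to 147 CPM in H/R and from 101 to 161 CPM in control, and Hnrnph3 from 30.5 to 44.3 CPM and from 35.7 to 47.7 CPM. The libraries of H/R and control thus overlapped for every gene of the group.

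Hnrnpk, a KH domain protein that binds C-rich RNA, had 91.4 CPM per kb of exon in H/R and 96.0 CPM per kb in control, below only Hnrnpab and Hnrnpf of the 25 genes tested per length. Its log2 fold change was -0.07 ± 0.09 (SE). Hnrnpl, which binds CA repeats, averaged 162 ± 12.4 CPM in H/R and 161 ± 16.8 CPM in control (SD, n = 3 each).

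Hnrnpll, the close relative of Hnrnpl that is known for the splicing of Ptprc in lymphocytes, had 77.5, 88.1 and 84.6 CPM in H/R and 75.4, 68.1 and 59.9 CPM in control. All H/R libraries were above all control libraries, but the closest pair differed by little. The log2 fold change was 0.30 ± 0.11 (SE), and the adjusted p of 0.0551 by edgeR's quasi-likelihood test missed the threshold. It passed by the exact test (0.0459), with no filter (0.0462), without scaling factors (0.00296) and without control replicate 1 (0.0136).

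Hnrnpm, which regulates the splicing of Cd44 in epithelial-mesenchymal transition, had 194, 202 and 224 CPM in H/R and 170, 143 and 167 CPM in control. The groups did not overlap. The level rose to 207 ± 15.8 CPM in H/R, against 160 ± 14.7 CPM in control (SD, n = 3 each), with a log2 fold change of 0.37 ± 0.10 (SE; adjusted p = 0.0104, edgeR quasi-likelihood test). The call was lost without control replicate 2 (adjusted p = 0.0703) and without H/R replicate 3 (adjusted p = 0.0533). Hnrnpm shares 14.7% of its exon bases with March2 on the same strand.

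Hnrnpul2, a protein of the hnRNP U group with a known part in the response to DNA double-strand breaks, had 240, 236 and 265 CPM in H/R and 189, 170 and 154 CPM in control (chr19:8820010-8834143). Every H/R library was well above the highest control library. Its log2 fold change of 0.53 ± 0.10 (SE) was the largest increase of the 25 genes, with 247 ± 15.5 CPM in H/R and 171 ± 17.5 CPM in control (SD, n = 3 each) and an adjusted p of 8.69e-04 by edgeR's quasi-likelihood test. Hnrnpu, a scaffold protein of chromatin, averaged 602 ± 33.5 CPM in H/R and 567 ± 26.7 CPM in control. Hnrnpul1 averaged 156 ± 4.35 and 172 ± 14.9 CPM, and Hnrnpr, a relative of Syncrip, 156 ± 5.50 and 155 ± 27.1 CPM, and none of these passed the test.

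Separation between the groups was thus seen in 8 of the 25 genes, with all H/R libraries above in 3 and below in 5, against 49.7% of all genes tested, with 25.7% above and 24% below. For a value tested alone, 3 libraries against 3 cannot give an exact permutation p below 0.1.

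The scale of the libraries bears on these calls. With library totals alone and no TMM factors, all genes had a median log2 fold change of 0.22 in place of 0.01, with 3704 genes higher and 1272 lower in place of 2087 and 2109. The same 5 genes were lower on that scale, while 7 were higher, as Srsf1, Hnrnpa0, Hnrnpab, Hnrnpll and Hnrnpu joined Hnrnpul2 and Hnrnpm. The signs of 8 genes without a call, Srsf4, Srsf10, Hnrnpd, Hnrnpdl, Hnrnph1, Hnrnph3, Hnrnpk and Hnrnpul1, turned from negative to positive. Thinning of the H/R libraries to the median control total left the counts at 2 higher and 5 lower.

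A ratio within each library does not depend on the scale. The 10 SR protein genes had 30.2, 31.8 and 30.3 counts per 100 counts of the 17 hnRNP genes in the H/R libraries, and 40.2, 42.1 and 36.9 in the control libraries. All H/R libraries were below all control libraries. As shares of all gene counts, SR protein genes took 0.134% ± 0.006 in H/R and 0.144% ± 0.015 in control (SD, n = 3 each), which overlapped, and hnRNP genes took 0.436% ± 0.023 and 0.362% ± 0.021, which did not. These shares carry no scaling factor, and the choice of members sets them. Srsf7 and Srsf9 added little to the SR counts, with 0 to 5 and 2 to 14 counts per library. Hnrnpa1 was not among the hnRNP genes found.

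**Figure D3:**
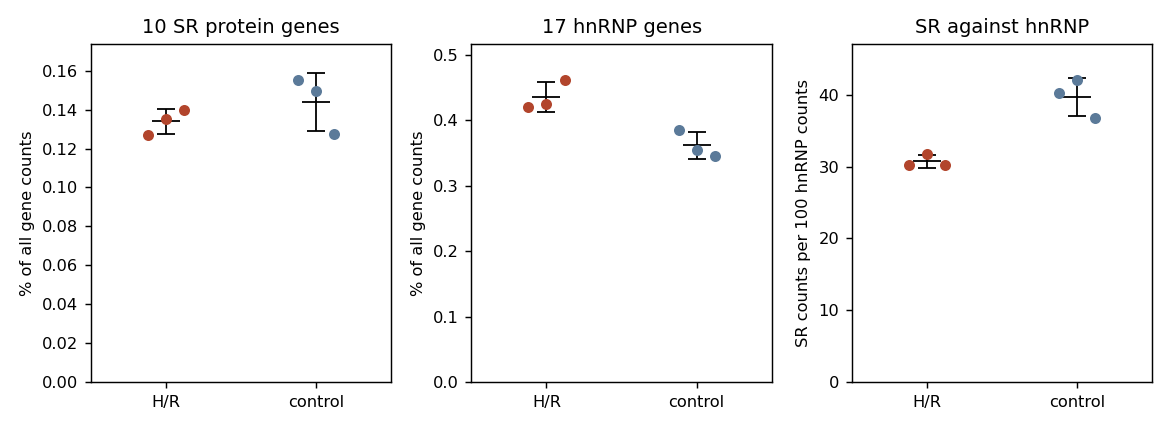
Counts of the 10 SR protein genes and of the 17 hnRNP genes as a percentage of all gene counts, and SR counts per 100 hnRNP counts, with H/R left, control right, a point for each library and the mean with its SD. The ratio is 30.2 to 31.8 in H/R and 36.9 to 42.1 in control, and the SR share alone overlaps between the groups.

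Srsf7 and Srsf9 were too low to test, but their gene rows may not hold their mRNA. The Srsf7 row had 0, 1 and 2 counts in H/R and 0, 5 and 0 counts in control, whereas a noncoding Srsf7 transcript of the lncRNA table (RefSeq NR_036615) had 482, 464 and 475 counts in H/R and 276, 274 and 225 in control. That transcript gave no call by edgeR's quasi-likelihood test over the lncRNA table (log2 fold change -0.12 ± 0.18, SE; adjusted p = 0.822). The Srsf9 row had 9, 14 and 6 counts in H/R and 2, 5 and 6 in control, the same as those of the noncoding transcript ENSMUST00000142318 in all 6 libraries. No level of either mRNA is therefore given.

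The lncRNA table gave a second readout, with 63 transcripts at 23 of the genes, of which 38 at 16 genes passed the filter. Most are retained-intron or decay forms that overlap the exons of the gene in sense, so their reads cannot be told apart from those of the mRNA. By edgeR's quasi-likelihood test, 1 was lower and 0 were higher at an adjusted p under 0.05, against 4.93% of the 6779 transcripts tested called in either direction, 2.26% lower and 2.67% higher. At an unadjusted p under 0.05 there were 9, of which 4 were higher, and DESeq2 called 3 lower and 0 higher. The 12 sense-overlapping transcripts tested at SR protein genes had a median log2 fold change of -0.57, and the 21 at hnRNP genes 0.17, beside 0.02 for all transcripts tested.

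The transcript called was Srsf11 ENSMUST00000089922, whose 64-base exon is printed above. It made up 7.89%, 8.91% and 6.79% of the counts of Srsf11 in the H/R libraries and 11.2%, 12.5% and 10.2% in the control libraries. Its log2 fold change on the scale of the lncRNA table was -0.91 ± 0.23 (SE), with an adjusted p of 0.0233 by edgeR's quasi-likelihood test. The call was lost without scaling factors (0.0584), with no filter (0.0886), and without control replicate 2 (0.110), H/R replicate 1 (0.127) or H/R replicate 3 (0.151).

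The transcripts described next were picked with their values in view. The 5 noncoding transcripts of Srsf11, which include ENSMUST00000133090, took 42.2%, 41.4% and 46.0% of the gene's counts in H/R and 47.1%, 53.4% and 51.1% in control. For Srsf2, the retained-intron transcript ENSMUST00000138484 took 9.35%, 9.52% and 8.53% in H/R and 17.7%, 10.6% and 12.5% in control. All H/R libraries were below all control libraries for both genes. The same held for the noncoding shares of Srsf1, Srsf5 and Hnrnpu, of which Srsf1 and Hnrnpu had no call as genes. How often such a separation occurs over all genes was not computed. For Srsf3, the transcript with the intron start printed above took 73.0%, 78.5% and 80.6% in H/R and 76.6%, 71.3% and 71.6% in control, so its count was as large as most of the count of Srsf3. The Srsf6 transcript with the printed exon took only 1.29% to 1.94% in H/R and 1.5% to 2.30% in control.

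When the counts of such transcripts were taken off the gene counts, an alternative added after the data were seen, the same 5 genes remained lower and the same 2 higher. Srsf11 kept a log2 fold change of -0.43 ± 0.10 (SE; adjusted p = 0.0058, edgeR quasi-likelihood test), and Srsf2 kept -0.58 ± 0.14 (SE; adjusted p = 0.00557). Whether the gene counts include these reads is not given in the sources used here. Of 13553 pairs of a transcript and a gene of the same name, the transcript never exceeded the gene in 13460. This does not settle it, because a transcript with few counts beside its gene would stay below it either way.

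**Figure D4:**
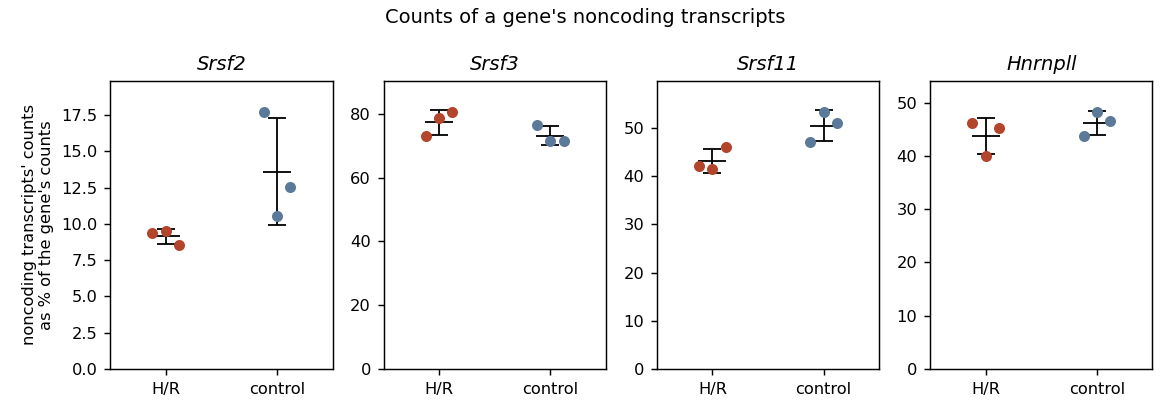
Counts of the noncoding transcripts of Srsf2, Srsf3, Srsf11 and Hnrnpll as a percentage of the gene's counts, with H/R left, control right, a point for each library and the mean with its SD. The H/R libraries are below the control libraries for Srsf2 and Srsf11 and overlap them for Srsf3 and Hnrnpll.

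Reads over back-splice junctions were few. The circRNA table held 9 circRNAs of these genes, with 97 reads in the H/R libraries and 52 in the control libraries. A circRNA of Hnrnpd at chr5:99955849-99967387 had 18, 10 and 40 reads in H/R and 6, 15 and 6 reads in control, and these overlapped (log2 fold change 0.49 ± 0.57, SE; adjusted p = 0.698, edgeR quasi-likelihood test). The next were circRNAs of Hnrnpll, with 4, 3 and 3 reads in H/R and 3, 7 and 1 in control, and of Hnrnpd again, with 0, 4 and 1 and with 1, 5 and 3 reads, both too low to test.

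Promoters are shown for Srsf5 and Srsf11, the SR protein genes with the smallest adjusted p. The RefSeq table (GRCm38.p6) matched 25 of the 27 genes. Both windows are the 250 bases before the start site, with matches of the motifs named below in capitals, at chr12:80945249-80945498 on the plus strand for Srsf5 and chr3:158036607-158036856 on the minus strand for Srsf11.
Srsf5 promoter: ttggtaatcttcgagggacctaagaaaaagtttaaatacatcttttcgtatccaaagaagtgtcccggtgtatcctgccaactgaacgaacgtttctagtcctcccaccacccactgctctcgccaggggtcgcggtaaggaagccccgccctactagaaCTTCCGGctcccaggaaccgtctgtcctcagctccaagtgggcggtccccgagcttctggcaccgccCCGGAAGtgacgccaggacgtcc
Srsf11 promoter: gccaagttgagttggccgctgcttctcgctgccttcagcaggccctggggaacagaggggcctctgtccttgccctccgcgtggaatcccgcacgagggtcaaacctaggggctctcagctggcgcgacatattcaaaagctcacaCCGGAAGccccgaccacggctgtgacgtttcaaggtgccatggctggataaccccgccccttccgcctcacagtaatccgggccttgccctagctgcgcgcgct

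A gene was counted for a motif if any of its RefSeq windows held it on either strand. The ETS sequence CCGGAAG was found for 6 of 25 genes (Srsf4, Srsf5, Srsf7, Srsf11, Hnrnpd and Hnrnpf), or 24%, against 7.83% of all 27025 genes. It was present in both promoters printed and absent from the windows of Srsf2 and Srsf6. The core of the hypoxia response element, ACGTG, was found for 7 genes, or 28%, against 18.5% of all genes. Of the 4 SR protein genes that were lower, it was found for Srsf6. CCAAT was found for 13 genes (52%, against 37.5%), and CACGTG, which contains the core ACGTG, for 3 (12%, against 6.86%). TATAAA was found for 3 (12%, against 14.3%) and TGACGTCA for 0 (against 1.77%). The NRF1 motif was found for 1 gene, Srsf11 (4%, against 0.877%), but not in the window printed. A match of letters is not a binding site.

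Genes that act with these proteins were described by lists. Of the kinases and phosphatases of SR proteins, 3 of the 12 tested were lower and 0 were higher by edgeR's quasi-likelihood test, with 0 higher also by DESeq2, by the exact test and at an unadjusted p under 0.05. This is 25% called, against 37.8% of all genes, of which 19% were lower. All 3 were CLK kinases, which phosphorylate SR proteins in the nucleus. Clk3, of the same family, did not pass, and its groups overlapped (log2 fold change -0.27 ± 0.14, SE; adjusted p = 0.135, edgeR quasi-likelihood test). Clk4 had 58.0, 63.5 and 56.5 CPM in H/R and 93.3, 95.1 and 101 CPM in control, with a log2 fold change of -0.70 ± 0.10 (SE; adjusted p = 1.43e-04, edgeR quasi-likelihood test). Clk2 and Clk1 had log2 fold changes of -0.47 ± 0.12 and -0.48 ± 0.14 (SE). Without scaling factors both lost their calls, as Clk1 also did without H/R replicate 2, and the list had 2 higher and 1 lower. Srpk1, which phosphorylates SR proteins in the cytoplasm before import, averaged 146 ± 3.07 CPM in H/R and 139 ± 5.37 CPM in control (SD, n = 3 each), and Srpk2 4.64 ± 1.42 and 4.38 ± 1.01 CPM, and neither passed.

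SR-related proteins carry such arginine and serine repeats, or bind those that do, and serve as coactivators or spliceosome parts. Of their 27 genes tested, 15 were lower and 0 higher by edgeR's quasi-likelihood test, with 17 and 0 by DESeq2, 15 and 0 by the exact test, and 19 and 0 at an unadjusted p under 0.05. The share called was 55.6%, against 37.8% of all genes. Their median log2 fold change was -0.32, beside 0.01 for all genes, and without scaling factors 4 were higher and 5 lower. Rsrc1, a regulator of the choice of 3′ splice site, had 49.5, 54.3 and 52.8 CPM in H/R and 98.7, 93.9 and 82.8 CPM in control (log2 fold change -0.81 ± 0.11, SE). Srek1, which interacts with SR proteins, averaged 91.5 ± 5.96 CPM in H/R and 141 ± 2.06 CPM in control, and Cwc22, which loads the exon junction complex, 520.4 ± 23.1 and 742 ± 61.3 CPM (SD, n = 3 each). These 3 genes kept their calls without scaling factors.

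Of 41 other splicing regulators and hnRNP-like proteins tested, 5 were higher and 17 lower, or 53.7% called against 37.8% of all genes, with a median log2 fold change of -0.23, and without scaling factors 9 were higher and 9 lower. The FET proteins Taf15 and Ewsr1 had the smallest adjusted p and were lower, with 153 ± 9.83 and 143 ± 1.48 CPM in H/R, against 309 ± 12.0 and 251 ± 7.78 CPM in control. Rbfox2, which binds GCAUG and is known from neural splicing, averaged 395 ± 13.9 CPM in H/R and 622 ± 22.2 CPM in control. Higher were Ptbp1, the pyrimidine tract binding protein of neural progenitors, with 382 ± 11.8 CPM in H/R and 274 ± 20.5 CPM in control, Tardbp with 137 ± 5.42 and 105 ± 9.06 CPM, and Qk with 114 ± 5.28 and 87.1 ± 4.92 CPM (SD, n = 3 each). Without H/R replicate 1 the list had 11 lower.

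**Figure D5:**
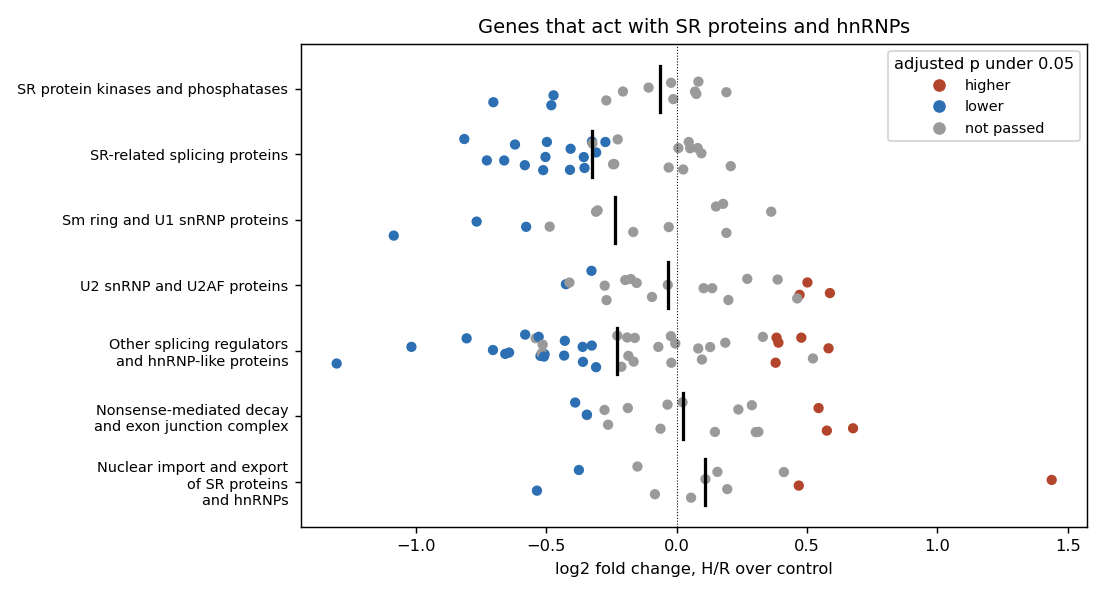
Log2 fold change of H/R over control for each gene tested in 7 lists of genes that act with SR proteins and hnRNPs, a point for each gene and a black bar at the list's median. The median is -0.32 for SR-related splicing proteins, -0.23 for other splicing regulators and 0.11 for nuclear import and export.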

How the data were processed

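RNA-seq of 3 H/R and 3 control libraries of C17.2 cells was used, read as pairs of 150 bp. Per the labels and the methods of the study, the authors trimmed reads with cutadapt 1.9.3, aligned them with HISAT2 2.0.4 to mm10 and counted genes with HTSeq 0.9.1. They also used STAR 2.5.1b for circRNAs and edgeR 3.16.5. The deposited tables hold raw counts per gene, per lncRNA transcript and per circRNA, and 18 other columns of values per sample were not used. The counting tool of the lncRNA table, the strand setting and the annotation release are not given in the sources used here.

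The tables were tested one by one with edgeR 4.0.16 under R 4.3.3 (filterByExpr, TMM, two-sided quasi-likelihood test without covariate, Benjamini-Hochberg adjustment over all features tested). The common coefficient of variation between libraries was 0.144 for genes and 0.405 for lncRNA transcripts. Replicates differed by more than sampling noise (chi-square per degree of freedom 8.91 to 30.0). Coordinates and exon bases came from GENCODE vM21, in which 14495 gene IDs were found. The members and lists were chosen with earlier results of these data known. All members were named, with up to 3 genes per list and direction by adjusted p, the kinases Srpk1, Srpk2, Clk1 and Clk4, transcripts at the members past the threshold, and the 3 circRNAs with most reads. Clk3 was named later, beside the other CLK kinases of its list. Alternatives were DESeq2 1.42.0, the exact test, other scaling and filters, a replicate block, thinned H/R libraries, each library left out, the thresholds of the study and, added later, counts without noncoding transcripts. The test was checked on simulated data. Counting errors only are covered by the depth, since reads carry no molecular identifiers.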

Additional observations from a re-analysis of the deposited data

How the results depend on the processing

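Over 25 single genes of the families and 15 alternatives each, 350 of 375 values kept their call or lack of one. These 350 include values without a call that changed sign by less than the SE, as for Hnrnpl and Hnrnpr. Of the others, 11 gained a call, 2 lost it, 12 without a call changed sign by the SE or more, and 0 reversed a call. The 5 lower genes were the same in every alternative that used the adjusted p, with a range of 5 to 6 when each library was left out, and those higher were 1 to 5. Without scaling factors 7 were higher, and at the thresholds of the study 0 were higher and 0 lower.

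For the lists without scaling factors, the counts higher and lower were 2 and 1 for kinases and phosphatases, 4 and 5 for SR-related proteins, 4 and 2 for Sm and U1 proteins, 8 and 0 for U2 proteins, 9 and 9 for other regulators, 7 and 0 for nonsense-mediated decay, and 6 and 1 for import and export. With each library left out, the ranges higher and lower were 0 to 1 and 2 to 4, 0 to 0 and 12 to 16, 0 to 1 and 2 to 4, 3 to 6 and 1 to 3, 4 to 6 and 11 to 18, 2 to 4 and 1 to 3, and 1 to 4 and 1 to 3, in the same order. For transcripts of the lncRNA table, DESeq2 gave 3 lower, no scaling factors and no filter gave 0 lower, and leaving out each library gave 0 to 1 lower and 0 to 1 higher. The causes of these changes were not tested, and fits with a library left out also had fewer libraries.

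Replicate numbers gave little sign of pairing, as deviations from the group means of libraries with the same number correlated at only 0.04, 0.004 and 0.02. H/R replicates 1 and 3 correlated best with the control of the same number, and H/R replicate 2 with control replicate 3. With the replicate number as a block, 2 genes were higher and 5 lower, 1998 genes in all were lower and 2039 higher, and 1 transcript was lower. Depth limits the rows with few counts, such as Srsf7, Srsf9 and the circRNAs.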

Other observations

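In 4 other lists of genes that act with SR proteins and hnRNPs, the share called by edgeR's quasi-likelihood test was 25% for Sm and U1 snRNP genes, 26.3% for U2 snRNP and U2AF genes, 29.4% for nonsense-mediated decay and 36.4% for import and export, each below the 37.8% of all genes tested. Of the 12 Sm and U1 snRNP genes tested, 3 were lower and 0 higher (0 higher by DESeq2, by the exact test and at an unadjusted p under 0.05). They were Prpf40b, with 20.3 ± 3.90 CPM in H/R and 43.1 ± 7.41 CPM in control (SD, n = 3 each), Snrpa, a U1 protein, with 39.8 ± 3.45 and 67.9 ± 13.8 CPM, and Prpf39, whose call was lost in 7 of 8 alternatives. Of the 19 U2 snRNP and U2AF genes tested, 3 were higher and 2 lower. Sf3b3 had 329 ± 11.8 CPM in H/R and 232 ± 10.5 CPM in control, Sf3a1 118 ± 4.56 and 78.2 ± 5.80 CPM, and Snrpb2 51.2 ± 7.81 and 36.9 ± 2.30 CPM. Sf1, the branch point binding protein, had 172 ± 3.43 CPM in H/R and 231 ± 9.71 CPM in control, and Puf60 77.4 ± 5.47 and 97.0 ± 15.1 CPM. Without scaling factors Sf1 and Puf60 lost their calls, and Puf60 lost it in 6 of 8 alternatives.

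In nonsense-mediated decay, which degrades transcripts with an early stop codon, 3 of 17 genes were higher and 2 lower, where 18.8% of all genes were higher and 19% lower. Upf1, the helicase of the pathway, had 139, 138 and 127 CPM in H/R and 79.3, 86.5 and 87.0 CPM in control, with a log2 fold change of 0.68 ± 0.10 (SE; adjusted p = 1.20e-04). Smg5 and Upf3b had log2 fold changes of 0.54 and 0.58, and Smg6 and Ncbp1 of -0.39 and -0.34. Of the 11 genes of import and export, Nxt1, the partner of the mRNA export receptor, had 18.0 ± 2.68 CPM in H/R and 6.61 ± 2.76 CPM in control, and Ddx39 was also higher, while Thoc2 had 236 ± 8.60 and 341 ± 9.07 CPM and Ddx39b was also lower. Without scaling factors Smg6, Ncbp1 and Ddx39b lost their calls. Upf3b, Ddx39 and Ncbp1 lost theirs without single libraries, in 3, 2 and 3 of the 6 cases, Snrpb2 in 1 and Ddx39b in 3.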
